A study of Homo sapiens with 8 samples.

Results

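The CXCR4 chemokine axis is described here through 8 genes of the SH-SY5Y transcriptome, out of 67060 genes in the deposited table: the ligands CXCL12 and MIF, the receptors CXCR4 and ACKR3, and the intracellular regulators GRK2, ARRB1, ARRB2 and RGS16. The cells, SH-SY5Y, are an established line from a human neuroblastoma, given as neuronal progenitor in the labels. RNA was sequenced from 4 ERRg libraries and 4 GFP libraries. In the ERRg group, cells carried an adenovirus for Flag-tagged ERRg joined to BioID, a biotin ligase for marking nearby proteins. ERRg is the estrogen-related receptor gamma, encoded by ESRRG. In the GFP group, the adenovirus carried BioID joined to GFP (green fluorescent protein) and a nuclear localisation signal (NLS). Both groups therefore received virus and biotin ligase. The dose was 0.5 ul of virus for 48 h, on cells grown to 80% confluence in DMEM with serum, in 10 cm plates. No group without virus is compared, and the model is 1 cell line with a delivered, tagged receptor. The labels do not say whether the libraries came from separate cultures, so the spread between them may be technical.

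CXCR4 was chosen by its fold change in these same libraries, where an earlier analysis found it among the genes that fell most, and the other 7 genes were listed around it by role with those results known. Values of the 8 genes are therefore a description, and no test is given for them.

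CXCR4 is a chemokine receptor with 7 membrane-spanning helices that couples to inhibitory G proteins and steers cell migration along gradients of CXCL12. In the embryo this pair guides neural crest cells, from which the sympathetic nervous system and neuroblastoma arise. ACKR3 is an atypical receptor that binds and removes CXCL12 without classical G protein signalling, and MIF is a cytokine that can also engage CXCR4. After activation, GRK2 phosphorylates the receptor and the arrestins ARRB1 and ARRB2 bind it, which ends G protein coupling and sends the receptor into endosomes. RGS16 shortens the signal by speeding the GTP hydrolysis of the G protein alpha subunit.

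The promoter windows of CXCR4 and its ligand CXCL12 are shown, since the delivered protein is a DNA-binding receptor. All 6 axis genes tested were lower in ERRg, so a lower level does not single out this pair. Whether the delivered receptor acts on either gene was not tested. The windows run from 250 bases before to 50 bases after a RefSeq start, 5′ to 3′ on the gene's strand, build GRCh38.p14. That of CXCR4 is chr2:136118100-136118399 on the minus strand and that of CXCL12 is chr10:44385048-44385347 on the minus strand. In CXCR4, capitals mark the TATA element, searched as TATAAAA on both strands after the window was seen, whose 2 overlapping matches form 1 run. In CXCL12, capitals mark AAGGTCA, the core of the response element to which estrogen-related receptors bind.
CXCR4: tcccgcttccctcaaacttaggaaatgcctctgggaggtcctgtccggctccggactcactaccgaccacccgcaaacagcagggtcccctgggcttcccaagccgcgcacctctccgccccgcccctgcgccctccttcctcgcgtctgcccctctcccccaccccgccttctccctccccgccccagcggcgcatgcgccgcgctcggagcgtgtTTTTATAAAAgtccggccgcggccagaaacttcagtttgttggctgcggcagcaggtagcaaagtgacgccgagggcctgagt
CXCL12: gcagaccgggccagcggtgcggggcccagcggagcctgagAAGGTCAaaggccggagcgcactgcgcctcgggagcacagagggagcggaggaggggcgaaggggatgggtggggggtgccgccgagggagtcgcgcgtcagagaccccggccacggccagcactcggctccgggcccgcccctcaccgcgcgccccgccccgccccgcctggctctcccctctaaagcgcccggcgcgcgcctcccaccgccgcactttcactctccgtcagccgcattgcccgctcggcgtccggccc

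RefSeq windows were matched for 6 of the 8 genes, 8 windows in all, 3 of them for CXCR4. The full response element TNAAGGTCA was searched on both strands and was present in 0 of the 8 windows, against 0.951% of 35116 windows of this length genome-wide. Its core AAGGTCA, which overlaps it, was present in 1 of the 8, that of CXCL12, where it begins 210 bases before the start. It occurs in 3.92% of all windows. In CXCR4 the TATAAAA matches lie in the printed window, the most upstream of its 3, and the other CXCR4 windows hold none. The matches begin 33 and 30 bases before the start, and the motif occurs in 4.52% of all windows. A match is a run of letters and not a measured binding site, and nothing about binding outside these windows follows from its absence.

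ERRg libraries held 21.02 to 23.0 M gene reads and GFP libraries 27.7 to 35.5 M (M, mega). Levels are given as CPM, counts scaled to a common library size after TMM, a scaling that assumes most genes do not change. ESRRG stood at 711 to 888 CPM in ERRg and 32.7 to 37.1 CPM in GFP, in accord with the labels. Reads assigned to no annotated gene feature made up 45.5% to 48.3% of reads in ERRg and 16.2% to 24.2% in GFP. The base of these shares holds no reads listed as not aligned. Mitochondrially encoded genes made up 7.13% to 8.35% of gene reads in ERRg and 3.01% to 5.57% in GFP. These shares separate the groups without overlap, so their part in any difference below cannot be told apart from that of the receptor. Among ERRg libraries, replicates 1 and 2 were alike (chi-square per gene 2.90), as were 3 and 4 (5.02), while other ERRg pairs lay between 9.87 and 22.4. Of 10 sympathetic neuroblast markers 8 were tested, 0 higher and 6 lower in ERRg, where 50.6% of coding genes were lower. With the offsets used below 3 were higher and 2 lower, against 41.3% of coding genes lower. The markers summed to 434 to 516 CPM in ERRg and 756 to 871 CPM in GFP, while TH and CHGA are listed at 0 in all 8 libraries. Leukocytes often carry CXCR4. Their 8 markers summed to 1.60 to 2.25 CPM in ERRg and 1.00 to 2.23 CPM in GFP. CD3E is listed at 0 throughout, and PTPRC had no more than 5 reads in any library. LCP1, the 1 tested, had 29 to 37 reads in ERRg libraries and 22 to 35 in GFP libraries, and 0 were called. Total reads of untested markers went both ways, such as SPI1 (10 in ERRg and 2 in GFP) and CD14 (28 in ERRg and 32 in GFP). The 6 endothelial markers summed to 4.77 to 6.38 CPM in ERRg and 3.02 to 4.50 CPM in GFP. Of the 2 tested, 1 was higher, or 2 with the offsets, where 29.0% and 30.8% of coding genes were higher. The 4 untested markers went both ways in total reads, such as TEK (20 in ERRg and 6 in GFP) and VWF (8 in ERRg and 44 in GFP). The part of other cells in the results was not tested.

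CXCL12, the secreted ligand, was scarce in both groups and lower in ERRg. Its level was 0.699, 0.864, 0.780 and 0.650 CPM in ERRg libraries 1 to 4, against 2.03, 1.52, 2.05 and 1.89 CPM in GFP libraries 1 to 4. The groups did not overlap, and the highest ERRg library was at 0.864 CPM and the lowest GFP library at 1.52 CPM. Mean levels were 0.748 ± 0.0937 CPM in ERRg and 1.87 ± 0.248 CPM in GFP (mean ± SD, 4 libraries a group), a log2 fold change of -1.31 (SE 0.23, ERRg over GFP). These levels rest on 16 to 23 reads per ERRg library and 44 to 57 reads per GFP library. The gene (ENSG00000107562.16) spans chr10:44370165-44386493 (all gene positions are those of GENCODE release 29 on GRCh38).

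MIF, the other ligand, is listed at 0 in all 8 libraries, and so is its antisense gene MIF-AS1. This is not read as absence of the RNA, because TUBB and FLOT1, which most cells use, are also listed at 0 throughout. The gene (ENSG00000240972.2) lies at chr22:23894004-23895227, overlapped on its own strand by another coding gene without a symbol, which is also at 0. Of the 17 coding genes centred within 250 kb of MIF, itself included, 9 are at 0 in all 8 libraries, against 14.1% of all coding genes in the table. They include DDT, the homologue of MIF in the same cytokine family, with DDTL, MMP11 and CHCHD10, named after their values were seen. Reads that aligned more than once (5.99% to 6.93% of reads in ERRg, 10.5% to 13.6% in GFP) or fell in more than one gene (5.05% to 5.96% in ERRg, 10.9% to 14.1% in GFP) were not assigned, and their part in these zeros was not tested. The table also lists 6360 identifiers found in neither gene table used here, which held 0.0620% to 0.0674% of gene reads in ERRg and 0.0685% to 0.0724% in GFP. Whether the alignment used a genome with alternate copies of some loci is not stated and was not tested, so no gene listed at 0 here, TH and CHGA included, is read as absent.

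CXCR4 had the largest difference of the axis and was close to the counting floor in ERRg. Its level was 0.329, 0.751, 0.492 and 0.528 CPM in ERRg libraries 1 to 4, against 7.06, 7.003, 7.66 and 7.20 CPM in GFP libraries 1 to 4. The 4 GFP libraries lay within 7.003 to 7.66 CPM, and all 4 ERRg libraries were at 0.751 CPM or below. These are 8, 20, 12 and 13 reads in ERRg and 198, 203, 213 and 175 reads in GFP. The exact Poisson 95% interval was 3.45 to 15.8 reads for the lowest ERRg library and 12.2 to 30.9 for the highest, and the 2 overlap. PCR duplicates are not separated, so these intervals cover counting error alone. Mean levels were 0.525 ± 0.174 CPM in ERRg and 7.23 ± 0.299 CPM in GFP (mean ± SD, 4 libraries a group), a factor of 13.8. The log2 fold change was -3.76 (SE 0.20), the 6th lowest of the 21993 genes tested. In bulk RNA, fewer cells that make the transcript and less transcript per cell cannot be told apart. The gene (ENSG00000121966.7) lies at chr2:136114349-136118165 on the minus strand, and no other annotated gene overlaps it.

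ACKR3, the scavenging receptor, was near the limit of detection in both groups. It had 0 reads in each of the 4 ERRg libraries and 0, 2, 0 and 1 reads in GFP libraries 1 to 4. A count of 0 allows up to 3 reads, which is 0.113 to 0.123 CPM in an ERRg library, so no fold change is given. The gene (ENSG00000144476.6, chr2:236567787-236582358) lies on the same chromosome as CXCR4. Between the receptors of CXCL12, CXCR4 held 53 reads and ACKR3 0 reads over the 4 ERRg libraries, against 789 and 3 reads over the 4 GFP libraries.

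RGS16, which damps the G protein signal, was lower in ERRg by less than CXCL12 or CXCR4. It stood at 9.67, 7.78, 9.97 and 10.9 CPM in ERRg libraries 1 to 4, against 16.1, 19.6, 15.6 and 16.6 CPM in GFP libraries 1 to 4. The groups did not overlap, and replicate 2 was the lowest of ERRg and the highest of GFP. The means were 9.58 ± 1.31 CPM in ERRg and 17.0 ± 1.79 CPM in GFP (mean ± SD, 4 libraries a group). The log2 fold change was -0.83 (SE 0.12), a direction not kept with offsets for GC content, length and gene span (0.04). The gene (ENSG00000143333.7) lies at chr1:182598623-182604408.

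GRK2, the kinase that marks active receptors for arrestin, stood at 10.9, 11.9, 17.6 and 15.9 CPM in ERRg libraries 1 to 4, against 34.5, 40.1, 31.7 and 34.0 CPM in GFP libraries 1 to 4. Within ERRg, replicates 3 and 4 lay above replicates 1 and 2, the same pairs that resembled each other over all genes. The groups did not overlap, with means of 14.1 ± 3.22 CPM in ERRg and 35.1 ± 3.53 CPM in GFP (mean ± SD, 4 libraries a group). The log2 fold change was -1.32 (SE 0.13), -1.64 with ERRg replicates 3 and 4 left out and -1.08 with ERRg replicates 1 and 2 left out. Its relative GRK3, which shares the G protein beta-gamma binding region, had more reads than GRK2 in all 8 libraries. GRK3 also has more exon bases (9303 against 6665). Per kilobase of annotated exon, GRK2 averaged 5.26 CPM and GRK3 4.62 CPM in GFP, with overlapping ranges, and 2.12 and 5.88 CPM in ERRg. The ratio of GRK2 to GRK3 reads was 0.262 ± 0.0782 in ERRg and 0.828 ± 0.150 in GFP (mean ± SD, 4 libraries a group). The 2 genes differ in GC content (61.2% in GRK2 and 42.7% in GRK3). Their log2 fold changes were -1.32 and 0.35 with TMM alone but -0.28 and -0.07 with offsets for GC content, length and gene span. GRK2 (ENSG00000173020.11) lies at chr11:67266410-67286556.

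The arrestins differed by unequal amounts. ARRB2 stood at 14.5, 13.7, 17.9 and 15.8 CPM in ERRg libraries 1 to 4, against 41.1, 55.5, 41.9 and 44.9 CPM in GFP libraries 1 to 4. ARRB1 stood at 14.9, 14.1, 17.7 and 17.9 CPM in ERRg, against 22.6, 25.4, 19.5 and 19.7 CPM in GFP. Neither gene's groups overlapped, but for ARRB1 the gap was narrow, 17.9 CPM in the highest ERRg library and 19.5 CPM in the lowest GFP library. ARRB2 averaged 15.5 ± 1.85 CPM in ERRg and 45.8 ± 6.65 CPM in GFP, and ARRB1 16.1 ± 1.95 CPM in ERRg and 21.8 ± 2.81 CPM in GFP (mean ± SD, 4 libraries a group). The log2 fold change was -1.57 (SE 0.11) for ARRB2 and -0.43 (SE 0.11) for ARRB1, and with the same offsets -0.47 for ARRB2 and 0.23 for ARRB1. Within a library scaling cancels, though trends with GC content, length and span do not. The ratio of ARRB2 to ARRB1 reads was 0.975, 0.971, 1.01 and 0.882 in ERRg and 1.82, 2.18, 2.15 and 2.28 in GFP. The mean ratio was 0.960 ± 0.0551 in ERRg and 2.11 ± 0.201 in GFP (mean ± SD, 4 libraries a group). ARRB1 (ENSG00000137486.17) spans chr11:75264182-75351705 and hosts the microRNA gene MIR326, and ARRB2 (ENSG00000141480.18) spans chr17:4710489-4721499.

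**Figure D1:**
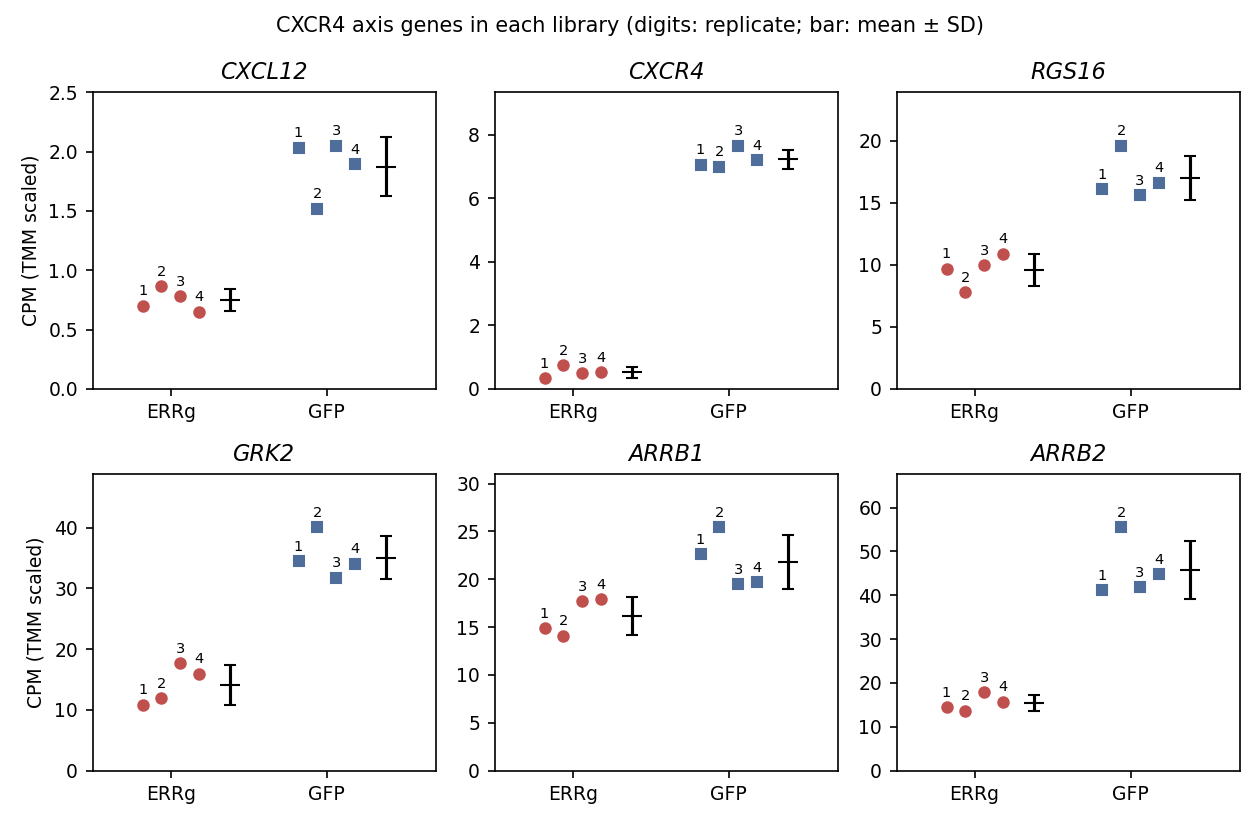
TMM-scaled CPM of the 6 axis genes that passed the low-count filter, 1 panel a gene with its own axis from 0. Circles are ERRg libraries and squares GFP libraries, digits give the replicate, and bars give mean ± SD (n = 4). CXCR4 reached at most 0.751 CPM in ERRg, while ARRB1 came closest to an overlap.

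In all, 6 of the 8 genes passed the low-count filter, and in those 6 every ERRg library lay below every GFP library. The same was true of 34.6% of all 21993 genes tested, and the groups did not overlap in either direction in 68.4%. By edgeR at an adjusted p under 0.05, 74.7% of all genes differed in either direction. Of coding genes, 29.0% were higher and 50.6% lower in ERRg. Once GC content, length and gene span were offset, these were 30.8% and 41.3%, or 72.1% in either direction. Nothing is read from the count of 6, since these values chose the genes. The 6 log2 fold changes ran from -3.76 to -0.43 with a median of -1.32, against a median of 0.09 over all genes and -0.30 over coding genes.

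Per kilobase of annotated exon, levels in ERRg ran from RGS16 (3.95 ± 0.540 CPM per kb) through ARRB2 (3.54 ± 0.424), ARRB1 (2.77 ± 0.334), GRK2 (2.12 ± 0.483) and CXCR4 (0.236 ± 0.0781) to CXCL12 (0.123 ± 0.0154, SD over 4 libraries). In ERRg the ranges of RGS16 and ARRB2 overlapped, as did those of ARRB1 and GRK2. Levels in GFP ran from ARRB2 (10.5 ± 1.52 CPM per kb) through RGS16 (6.99 ± 0.739), GRK2 (5.26 ± 0.530), ARRB1 (3.74 ± 0.481) and CXCR4 (3.25 ± 0.134) to CXCL12 (0.308 ± 0.0407, SD over 4 libraries). In GFP the neighbours whose ranges overlapped were ARRB1 (3.35 to 4.36) and CXCR4 (3.15 to 3.45). The ratio of CXCR4 to CXCL12 reads within a library was 0.471, 0.870, 0.632 and 0.812 in ERRg libraries 1 to 4, against 3.47, 4.61, 3.74 and 3.804 in GFP libraries 1 to 4. In reads the ligand thus outnumbered the receptor in every ERRg library, and the reverse held in every GFP library. The ERRg order rests on 8 to 20 reads of CXCR4 and 16 to 23 of CXCL12, with overlapping Poisson intervals in each library. It also reflects length, since CXCL12 has 6077 exon bases and CXCR4 2224. Per kilobase CXCR4 lay above CXCL12 in both groups, so the order did not reverse.

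Fold changes of coding genes in this comparison followed the GC content of the transcript, so each gene was set beside coding genes of its own GC decile. CXCR4, whose longest annotated transcript has 43.9% GC, was the lowest of the 1343 coding genes in its decile, where the median log2 fold change was 0.02. In the decile of CXCL12 (47.5% GC, median -0.21), 2.91% of genes were lower than it. GRK2 (61.2% GC) and ARRB2 (58.8% GC) fell in 1 decile with a median of -1.15, in which 36.0% and 17.3% of genes were lower. RGS16 (53.4% GC) lay near its decile's median of -0.73, with 44.4% of genes lower. ARRB1 (55.8% GC) lay above its decile's median of -0.97, with 75.0% of genes lower.

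**Figure D2:**
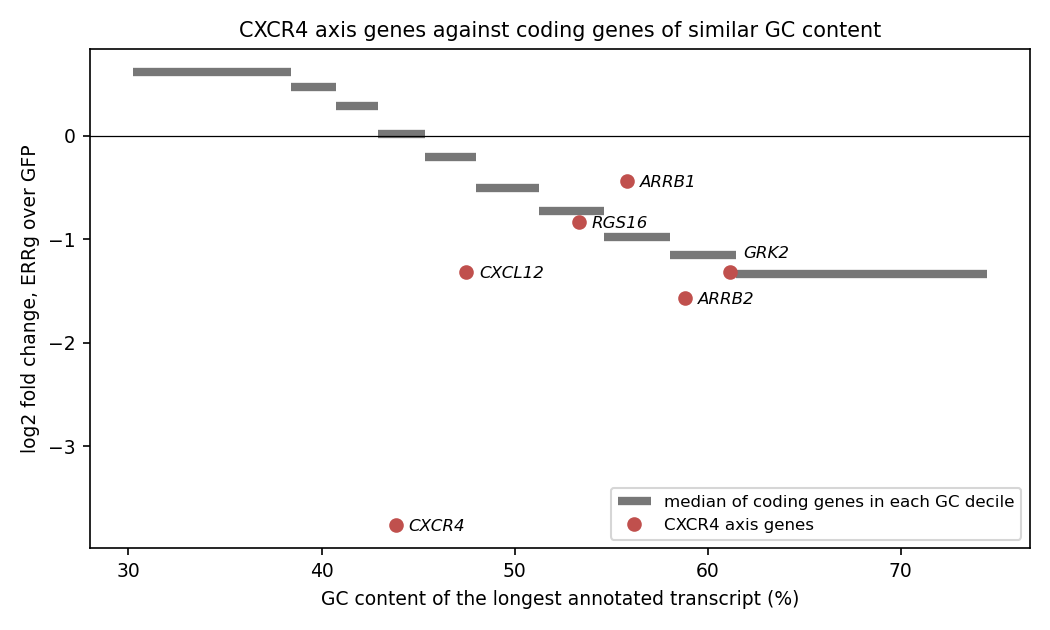
Log2 fold change (ERRg over GFP, y axis) against the GC content of the longest annotated transcript (x axis). Grey bars are medians of coding genes in each GC decile and red points the 6 axis genes. CXCR4 lies at -3.76 where the decile median is 0.02, and RGS16 and GRK2 lie near the medians of their deciles.

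The comparison was therefore repeated on coding genes with gene-wise offsets for GC content, transcript length and gene span. CXCR4 remained at -3.54 (SE 0.18) and CXCL12 at -0.95 (SE 0.21). ARRB2 was at -0.47 (SE 0.06) and GRK2 at -0.28 (SE 0.07), both much nearer to 0 than with TMM alone. RGS16 was at 0.04 (SE 0.09) and ARRB1 at 0.23 (SE 0.07), so the direction of these 2 depends on the offsets. The arrestins kept their order, with ARRB2 the more negative in both fits. With library totals in place of TMM, which moved the median of all genes to 0.50, ARRB1 was at -0.03 and ARRB2 at -1.16.

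**Figure D3:**
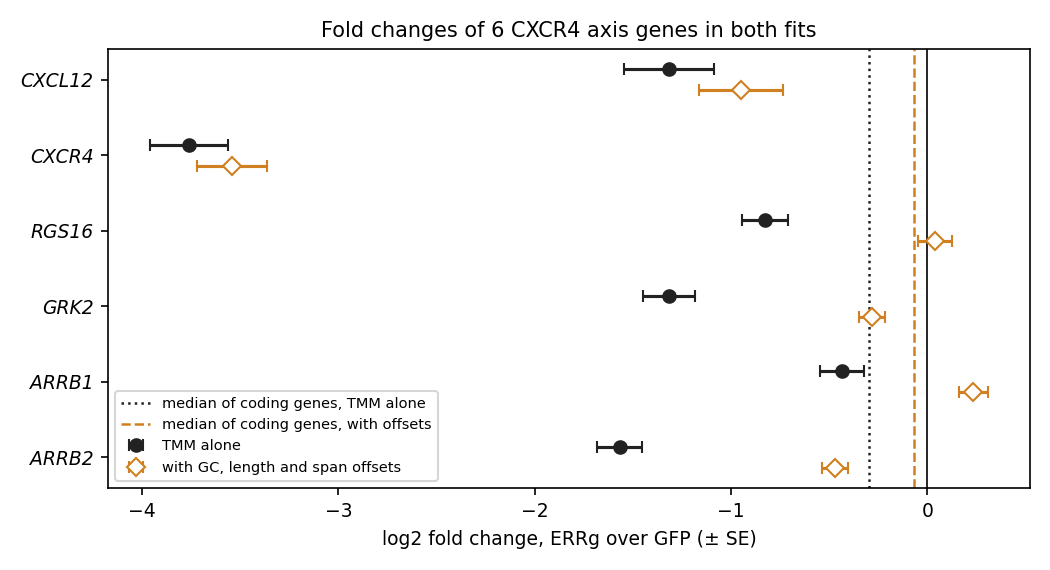
Log2 fold changes (ERRg over GFP) with SE of the 6 axis genes, with TMM alone (filled circles) and with GC, length and span offsets (open diamonds). The vertical lines give the medians of coding genes. CXCR4 stays at -3.54 with the offsets, while RGS16 and ARRB1 cross 0.

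Genes with a pattern most like that of CXCR4 were sought among 11699 coding genes, by the root mean square difference of centred log2 CPM over the 8 libraries, which mostly reflects the shared division into 2 groups. The nearest were PTGER1, a prostaglandin receptor (0.359 log2 units), SYT9, a synaptotagmin of vesicle exocytosis (0.402), NGFR, the low-affinity neurotrophin receptor (0.477), C11orf96 (0.536) and PLAT, the tissue plasminogen activator (0.564). PLAT was at 56.6 ± 6.34 CPM in ERRg and 342 ± 40.1 CPM in GFP, and SYT9 at 0.972 ± 0.274 CPM in ERRg and 14.3 ± 1.56 CPM in GFP (mean ± SD, 4 libraries a group). With the offsets SYT9 was at -3.68 and PLAT at -2.46, while PTGER1 was at -1.80, NGFR at -2.43 and C11orf96 at -1.51.

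Around these genes, 10 lists by role held 181 other genes of chemokine signalling, of which 125 passed the filter. At the same threshold edgeR called 36 of the 125 higher and 74 lower in ERRg (28.8% and 59.2%). Over all genes the shares were 38.8% higher and 35.9% lower, and over coding genes 29.0% higher and 50.6% lower. The offsets gave 30 higher and 66 lower (24.0% and 52.8%), against 30.8% and 41.3% of coding genes. The shares over coding genes are the background for each list below, and no excess is read from a single list. The median log2 fold change of the 125 was -0.53 with TMM alone and -0.21 with the offsets. Scaling by the upper quartile gave 44 higher and 58 lower, where 50.2% of all genes were higher and 27.5% lower. Scaling by library totals gave 50 and 55, where 53.6% of all genes were higher and 24.5% lower. All 125 are coding genes, and with TMM alone coding genes were lower more often than all genes. Shares over coding genes are not given for these other scalings, so no excess is read from their counts. Between TMM alone and the offsets, 11 pathway genes turned from called higher to called lower and 4 from lower to higher. For the lists below, medians, values with an SE and rises or falls by a number are in log2 units, ERRg over GFP.

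Few reads were assigned to other chemokine receptors. Of 21, 4 were tested, 11 had some reads but too few and 6 are listed at 0, which is not read as absence. ACKR4, an atypical receptor that removes homeostatic chemokines, rose to 2.44 ± 0.496 CPM in ERRg, against 1.08 ± 0.147 CPM in GFP (log2 fold change 1.18, SE 0.21, edgeR adjusted p = 5.18e-05). CXCR3, a receptor for interferon-induced chemokines, rose to 0.628 ± 0.114 CPM in ERRg, against 0.180 ± 0.101 CPM in GFP (1.82, SE 0.40, edgeR adjusted p = 3.40e-04, and 3.06 with the offsets). Its counts were 13 to 20 reads in each ERRg library and 3 to 8 in each GFP library. CCR10, a receptor of skin and mucosal homing, fell to 0.369 ± 0.217 CPM in ERRg, against 1.32 ± 0.239 CPM in GFP (-1.82, SE 0.34, edgeR adjusted p = 6.76e-05), a call that ended with the offsets (-0.39, adjusted p = 0.276). The list had 3 higher and 1 lower (median 0.93), or 3 higher and 0 lower under the offsets (median 1.02).

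Of 35 other chemokine ligands, 6 were tested, 2 higher and 3 lower (median -0.26), or 2 higher and 2 lower under the offsets (median -0.25). CX3CL1, the membrane-bound chemokine fractalkine, fell to 6.25 ± 1.40 CPM in ERRg, against 16.0 ± 1.75 CPM in GFP (-1.36, SE 0.14, edgeR adjusted p = 2.79e-08, and -0.52 with the offsets). CCL2, which attracts monocytes, was the most abundant of those named here, at 61.3 ± 6.45 CPM in ERRg and 92.4 ± 5.40 CPM in GFP (-0.59, SE 0.09, edgeR adjusted p = 8.22e-06). CXCL16, a transmembrane chemokine, fell by 1.26 log2 units (SE 0.21), a call lost with the offsets (-0.26, adjusted p = 0.250). For CCL2, library totals ended the call (-0.19, adjusted p = 0.0677).

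The MIF group held DDT, at 0, and 2 tested receptor components, with 0 higher and 1 lower (median -0.32), or 1 and 1 with the offsets (median 0.20). CD44, the co-receptor and hyaluronan receptor, fell to 500.4 ± 14.4 CPM in ERRg, against 944 ± 29.1 CPM in GFP (-0.92, SE 0.08, edgeR adjusted p = 5.22e-09, and -0.97 with the offsets). CD74, the invariant chain that binds MIF at the surface, was at 1.28 ± 0.369 CPM in ERRg and 1.05 ± 0.246 CPM in GFP, and did not pass the test with TMM alone (0.27, adjusted p = 0.346) but did with the offsets (1.36, adjusted p = 5.71e-05). The list of ligand-cleaving proteases and binding partners also holds HMGB1, CD164 and ADM. In it 3 of 6 tested were higher and 3 lower (median -0.02), and with the offsets 2 and 4 (median -0.27). The gelatinase MMP2 fell to 189.6 ± 20.9 CPM in ERRg, against 492 ± 25.4 CPM in GFP, and its activator MMP14 to 51.7 ± 5.70 CPM in ERRg, against 142 ± 11.4 CPM in GFP (log2 fold changes -1.38 and -1.45, edgeR adjusted p = 1.59e-10 and 1.34e-10). DPP4, the peptidase that inactivates CXCL12 by clipping its amino terminus, rose to 9.96 ± 0.170 CPM in ERRg, against 7.08 ± 0.733 CPM in GFP (0.49, SE 0.12, edgeR adjusted p = 7.35e-04). With the offsets MMP2 was at -0.72, MMP14 at -0.41 and DPP4 at 0.40, and each passed the test.

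Among G protein subunits, 6 of 22 tested were higher and 14 lower (median -0.60), or 4 higher and 15 lower under the offsets (median -0.33). Over coding genes 29.0% were higher and 50.6% lower, or 30.8% and 41.3% with the offsets. GNAI2, an inhibitory alpha subunit to which chemokine receptors couple, fell to 207 ± 31.5 CPM in ERRg, against 615 ± 52.0 CPM in GFP (-1.57, SE 0.11, edgeR adjusted p = 1.54e-10). The beta subunit GNB2 fell by 1.92 (SE 0.13) and the gamma subunit GNG11 by 1.38 (SE 0.10). With the offsets the 3 were at -0.81, -0.56 and -1.34, each past the test. Of the 4 other receptor kinases, GRK6 fell by 1.00 (SE 0.13) and GRK3 rose by 0.35 (SE 0.10, edgeR adjusted p = 0.00308, groups overlapping), while GRK4 (0.20) did not pass. Under the offsets GRK6 was at 0.03 and GRK3 at -0.07, and neither passed, while GRK4 was at 0.62 and did. The list then had 2 higher and 0 lower, against 1 and 1 with TMM alone.

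Of 15 other RGS proteins tested, 7 were higher and 7 lower (median -0.27), and 7 and 7 with the offsets (median -0.16). These were not all the same genes, since 5 were higher and 5 lower in both fits, 2 turned from higher to lower and 1 from lower to higher. RGS9, known from striatal and retinal signalling, fell to 0.788 ± 0.146 CPM in ERRg, against 5.08 ± 1.42 CPM in GFP (-2.68, SE 0.23, edgeR adjusted p = 1.81e-09). RGS3 fell by 1.55 (SE 0.12) and RGS10, known from microglia and platelets, by 1.27 (SE 0.11). With the offsets these 3 were at -2.90, -0.84 and -1.12, past the test in each case.

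Genes of receptor ubiquitination and endocytic sorting had 4 higher and 13 lower of 20 (median -0.84), or 0 higher and 11 lower under the offsets (median -0.20). The shares over coding genes were 29.0% higher and 50.6% lower, or 30.8% and 41.3% with the offsets. The adaptor subunit AP2S1 fell by 1.70 (SE 0.12), the clathrin light chain CLTA by 1.21 (SE 0.10) and the endosomal ATPase VPS4A by 1.28 (SE 0.11). Offsets put them at -0.53, -0.83 and -0.53. Of 34 signalling effectors tested, 8 were higher and 23 lower (median -0.75), and with the offsets 5 and 21 (median -0.26). The ERK kinase MAPK3 fell by 1.77 log2 units (SE 0.12) and the phospholipase PLCB3 by 1.58 (SE 0.12). The MAP kinase kinase MAP2K2 fell by 1.52 (SE 0.12). Under the offsets MAPK3, PLCB3 and MAP2K2 were at -0.57, -0.49 and -0.52. In these 6 genes the call held in both fits.

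Of 12 transcription regulators described for CXCR4, 2 were higher and 8 lower (median -0.33), or 4 higher and 5 lower under the offsets (median -0.08). Among coding genes 29.0% were higher and 50.6% lower, or 30.8% and 41.3% with the offsets. HIF1A, the hypoxia-inducible factor known to induce CXCR4, rose to 499.6 ± 60.2 CPM in ERRg, against 269 ± 20.3 CPM in GFP (0.89, SE 0.10, edgeR adjusted p = 6.34e-08, and 0.34 with the offsets). RELA, the NF-kappa-B subunit, fell to 52.8 ± 8.05 CPM in ERRg, against 150.1 ± 16.0 CPM in GFP (-1.51, SE 0.11, edgeR adjusted p = 2.56e-10, and -0.50 with the offsets). FOXC1 fell by 1.10 (SE 0.12), and its call was lost with the offsets (-0.11, adjusted p = 0.382).

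**Figure D4:**
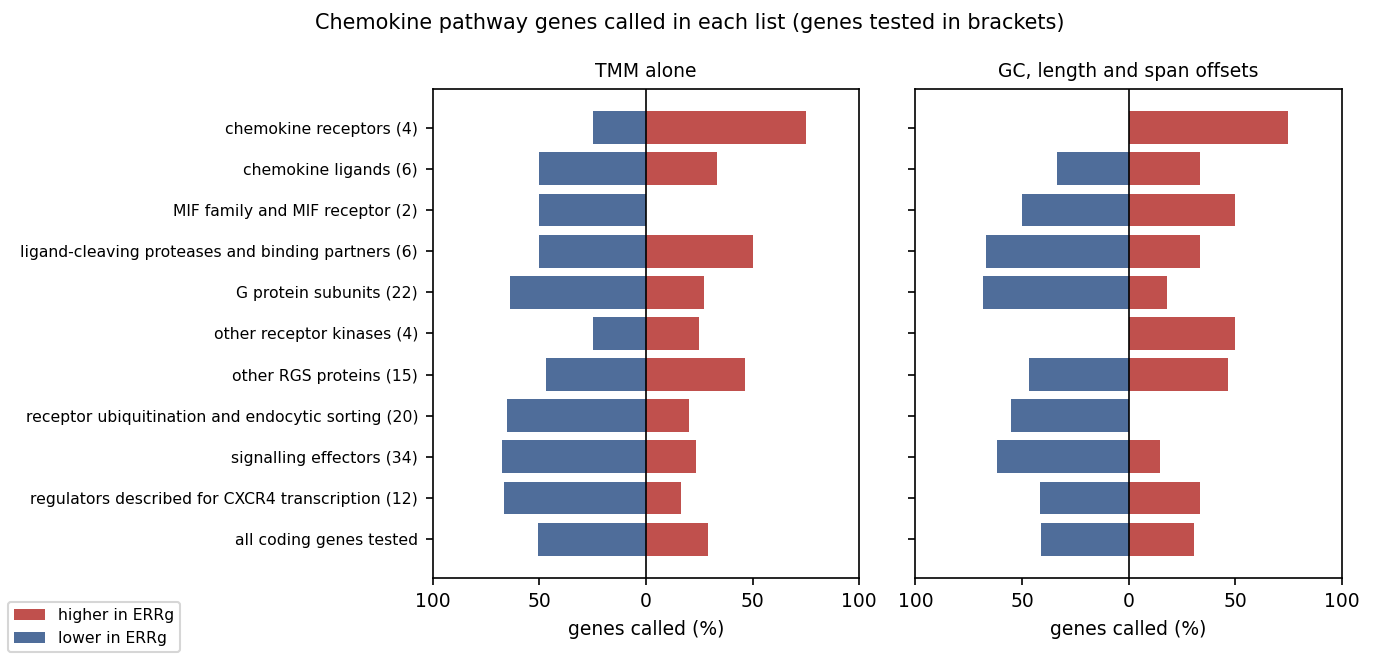
Share of tested genes called higher (right, red) or lower (left, blue) in ERRg in each of 10 role lists and over all coding genes, with TMM alone (left panel) and with GC, length and span offsets (right panel); brackets give the genes tested. Receptor sorting genes had 4 higher and 13 lower of 20 with TMM alone and 0 higher and 11 lower with the offsets. Over all coding genes 29.0% were higher and 50.6% lower with TMM alone, and 30.8% and 41.3% with the offsets.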

How the data were processed

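One table of raw counts was deposited, with a row per gene and a column per library, and the labels' protocols describe ribosomal RNA depletion and a directional library kit. The submitters' processing notes name the aligner STAR 2.7.8a, the counter HTSeq 0.11.3, the trimmer Trim Galore 0.6.6, then CASAVA, DESeq2 and build GRCh38. Neither annotation release nor strand setting is given there. The 5 summary lines, which name no gene, enter neither library sizes nor tests (their shares are given with the results). A name table gave symbols for 60419 identifiers. Positions, GC content and lengths came from GENCODE release 29 on GRCh38 (58444 matched). Promoters are RefSeq windows.

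Of 41858 genes with a count, 21993 passed filterByExpr and were compared with edgeR 4.0.16 in R 4.3.3 (TMM, quasi-likelihood test, group as the sole term, two-sided, Benjamini-Hochberg over all genes tested, adjusted p under 0.05). SE is the log2 fold change divided by the root of the F statistic. Offsets were per-library spline fits of each gene's deviation from its mean log2 CPM on GC content, transcript length and span over 13426 coding genes. They therefore also take out any difference between the groups that runs with these properties. Alternatives were DESeq2 1.42.0, limma 3.58.1 (voom), other factors and filters, a replicate block and left-out libraries. No pair of libraries was a duplicate (chi-square per gene 2.90 to 41.2).

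Genes were named by rule (the 8 axis genes, ESRRG, the 3 smallest p per list and the 5 genes most like CXCR4). Genes listed at 0, the cell type markers, neighbours of MIF and overlapping genes were named beside these after their values were seen. The axis genes and lists were chosen with earlier results of these data known. Leaving out ERRg replicates in pairs was chosen after seeing the data.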

Additional observations from a re-analysis of the deposited data

Results flagged for a closer look

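In 82 groups of 4 libraries, from 41 genes, 2 held a library far from the other 3 by Dixon's ratio of gap to range, and chance alone gives about 1 in 20. DPP4 was at 8.17 CPM in GFP replicate 3, against 6.55 to 6.81 CPM in the other GFP libraries (ratio 0.839). PTGER1, the gene most like CXCR4, was at 0.165 CPM in ERRg replicate 1, against 0.575 to 0.650 CPM in the other ERRg libraries (ratio 0.844), and rested on 4 reads there.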

How the results depend on the processing

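CXCR4 stayed negative under all 21 alternatives, from -4.00 (without ERRg replicate 2) to -3.36 (library totals, the one shift beyond its replicate spread), and from -4.00 to -3.60 with each library left out. CXCL12 (-1.46 to -0.92), ARRB2 (-1.72 to -0.47) and GRK2 (-1.64 to -0.23) also kept their sign, while ARRB1 turned to 0.23 with all offsets and 0.37 with the GC offset alone, and RGS16 to 0.038 with all offsets (-0.18 with GC alone). GRK6 turned to 0.027 and 0.12 and GRK3 to -0.067 (all offsets). The cause was not tested beyond the offsets themselves. Genes called numbered 8529 higher and 7899 lower, 11041 and 6045 with upper-quartile factors (median of all genes 0.40) and 11791 and 5383 with library totals. Over coding genes alone, fewer were tested, and 4134 (all offsets) or 4336 (GC alone) were higher. A test for changes beyond 1 log2 unit left 1692 higher and 2302 lower calls, 7.69% and 10.5% of all genes tested. Of the 125 pathway genes tested, 2 were higher and 28 lower in it. Its share over coding genes is not given, so no excess is read from these counts. Same-numbered libraries did not deviate together (correlations 0.114, -0.258, -0.161 and -0.0753), so the numbers were not taken as pairs. With the replicate block CXCR4 was at -3.77, with 31 pathway genes higher and 73 lower. In that fit 37.2% of all genes were higher and 34.8% lower, and the share over coding genes is not given. Few reads limit ACKR3, CXCR4 in ERRg and CXCL12, as well as CXCR3, CCR10 and PTGER1.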
